A study of Rattus norvegicus with 10 samples.

Results

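The 6 microglia marker genes described here were examined in the rat PFC. A rule chose them by Ensembl identifier from the 30560 genes of the count table. It does not refer to their values, but earlier results of these data were known when the members were chosen. The rule names them Aif1, Itgam, Csf1r, Cd68, C1qa and C1qb, though these names could not be checked. All 6 identifiers were found and had counts high enough to be tested. The samples were PFC tissue of 10 male, wild-type SD rats, bought at 21 days of age, of which 5 received daily intraperitoneal MK-801 at 0.2 mg/kg for 2 weeks and 5 received 0.9% saline in its place, after 1 week of habituation. MK-801 is an NMDA receptor blocker of the non-competitive kind, and its repeated injection is a pharmacological model that leaves every gene intact. Each rat gave 1 library of bulk tissue, so neurons and all glia contribute to every value.

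Microglia are the resident macrophages of the brain. They survey the tissue, take up debris and synapses, and depend on the CSF1 receptor for survival. AIF1 (also called IBA1) is the calcium- and actin-binding protein by which microglia are usually stained, ITGAM (CD11b) is the alpha chain of complement receptor 3, and CD68 is a lysosomal glycoprotein of phagocytes. The chains C1QA, C1QB and C1QC build C1q, the molecule that starts the classical complement cascade, and in the brain they are made mainly by microglia.

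The symbols could not be checked, because neither the count table nor the RefSeq gene table pairs them with Ensembl identifiers (0 of the 30560 identifiers matched). The 2 members whose symbols were doubted most are written by identifier. ENSRNOG00000012804 is called C1qb by the rule, but could not be told from its sister chains by any file used here. ENSRNOG00000018659 is called Csf1r by the rule, and its level did not follow those of the other members from rat to rat. Both symbols are uncertain, and so is any statement on the CSF1 receptor from these values. The others, Aif1 (ENSRNOG00000000853), Itgam (ENSRNOG00000019728), Cd68 (ENSRNOG00000037563) and C1qa (ENSRNOG00000012807), are given by the symbols of the rule. These symbols were not checked either, and C1qa too could not be told from its sister chains.

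The stretches of DNA before these genes are shown because genes of the macrophage lineage are commonly driven by the ETS factor PU.1. Of the 4 symbols used, Cd68, Itgam and C1qa matched the RefSeq promoter table of the GRCr8 assembly, and Aif1 did not. The 250 bases before each annotated start are printed 5′ to 3′ on the strand of the gene. Capitals mark the letters GAGGAA, a form of the site read by PU.1, on either strand (TTCCTC where it lies on the other strand). The first lies at chr10:54882442-54882691 on the minus strand, the second at chr1:192089342-192089591 on the plus strand and the third at chr5:154419934-154420183 on the minus strand.
Cd68: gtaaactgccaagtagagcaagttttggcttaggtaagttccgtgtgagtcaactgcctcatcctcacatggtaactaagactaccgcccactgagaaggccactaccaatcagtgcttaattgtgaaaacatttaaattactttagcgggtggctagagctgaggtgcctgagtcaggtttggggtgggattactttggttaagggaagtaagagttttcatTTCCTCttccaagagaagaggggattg
Itgam: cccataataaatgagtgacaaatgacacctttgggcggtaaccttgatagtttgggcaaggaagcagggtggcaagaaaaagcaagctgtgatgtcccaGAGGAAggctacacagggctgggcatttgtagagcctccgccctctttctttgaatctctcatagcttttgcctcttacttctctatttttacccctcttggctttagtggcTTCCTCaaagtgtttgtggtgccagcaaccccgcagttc
C1qa: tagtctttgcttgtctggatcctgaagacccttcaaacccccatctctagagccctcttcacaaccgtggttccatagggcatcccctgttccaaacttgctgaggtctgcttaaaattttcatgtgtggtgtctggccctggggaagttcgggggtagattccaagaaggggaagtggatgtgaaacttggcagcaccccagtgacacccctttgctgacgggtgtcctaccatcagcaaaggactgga
GAGGAA was present at 2 places before Itgam, at 1 place before Cd68 and not before C1qa, and 23.3% of the 33469 promoters of this length hold it. A longer motif, the composite element of an ETS and an IRF site, was found before Cd68, where it overlaps GAGGAA, and in 2.48% of all promoters. Other forms of the PU.1 site were not searched, so the absence of such a site before C1qa is not shown. These are matches of letters, not measured sites.

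The question put to the counts was whether these genes differed between the MK-801 and the control group. They did not detectably. Total counts ranged from 24334589 to 30824539 per rat, and the members from 19 counts (Cd68 in control replicate 2) to 1029 (C1qa in control replicate 3). Of the 6 members, 0 passed an adjusted p of 0.05 by the quasi-likelihood test of edgeR, which called 0.00% of all 16137 genes tested, and 0 had an unadjusted p-value under 0.05, which 13.9% of all genes tested had (6.95% lower and 6.90% higher in the MK-801 rats). DESeq2 and limma-voom also called 0 of the 6 by either measure. DESeq2 was run on all 23914 genes with any count. Its default filters can leave genes without an adjusted p, and the number of such genes was not counted. It called 106 genes by adjusted p and had 1225 higher and 1152 lower at an unadjusted p under 0.05. With limma-voom, run on the 16137 genes, these were 0, 1124 and 1099. The groups overlapped in every member. This was the usual outcome, since only 2.31% of all genes tested had groups that did not overlap. The criteria stated in the methods, a p-value under 0.05 with a log2 fold change of at least 1 in size, were met in edgeR by 0.229% of all genes tested and by 0 members. With DESeq2, the tool to which the methods apply them, 115 of 23914 genes met them. The estimate lay below the control in 5 members and above it in 1, with 51.3% of all genes tested below. The median log2 fold change was -0.04 for the members and -0.01 for all genes tested.

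**Figure D1:**
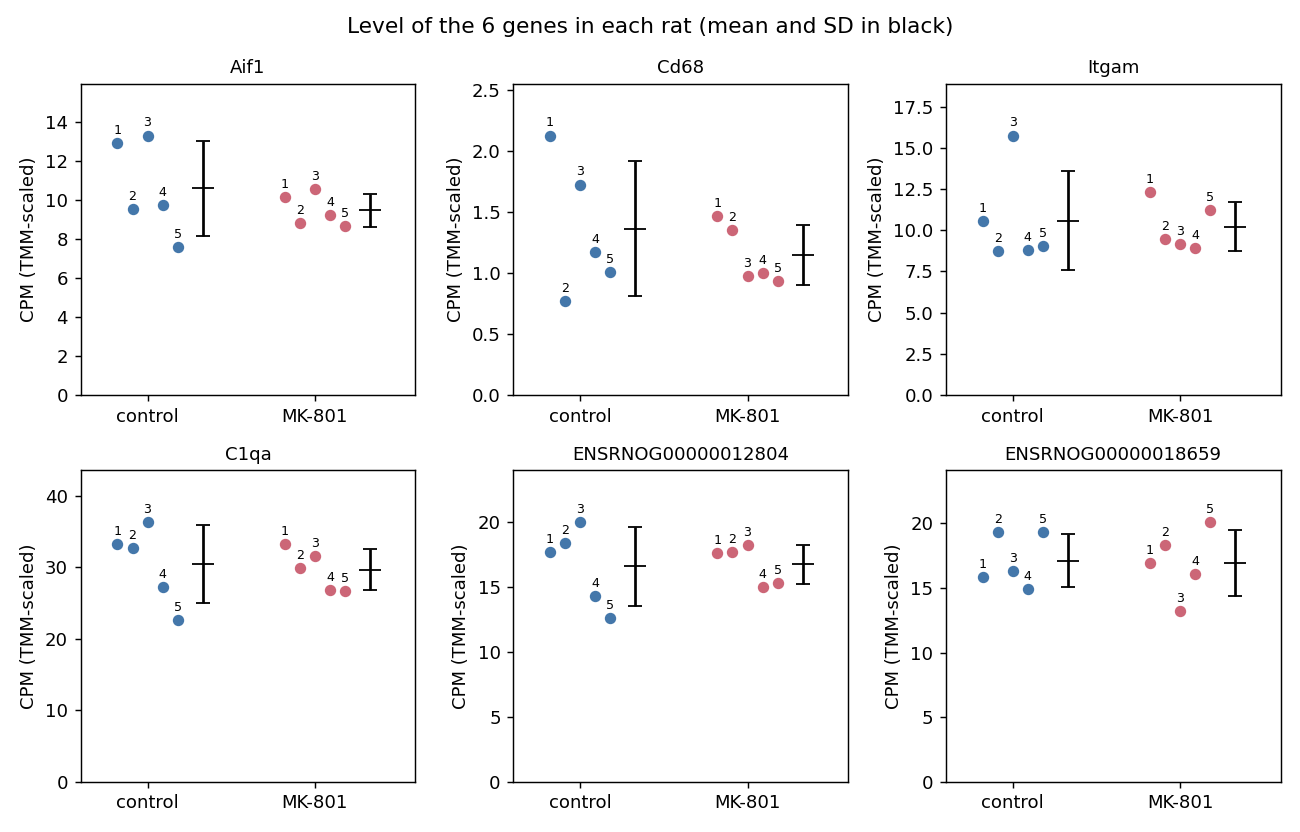
Level of each gene in each rat in CPM after TMM scaling, with 1 dot per rat numbered by replicate and the mean and SD of 5 rats in black. The 2 groups overlap in all 6 panels, and control replicates 3 and 5 often mark the top and the bottom.

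Values of single rats are CPM (the count of a gene relative to the total count of its library, after TMM scaling) and are listed in the order of replicates 1 to 5. CPM does not correct for gene length, so levels are compared between rats and not between genes. Aif1 was at 12.9, 9.52, 13.3, 9.72 and 7.56 CPM in the control rats and at 10.1, 8.78, 10.6, 9.22 and 8.64 CPM in the MK-801 rats. Control replicates 1 and 3 were the highest and control replicate 5 the lowest of all rats, so that every MK-801 rat lay inside the range of the control group. Control rats averaged 10.6 ± 2.43 CPM (SD, n = 5), and MK-801 rats averaged 9.46 ± 0.842 CPM (SD, n = 5). The log2 fold change of Aif1 was -0.16 (standard error 0.14), with an adjusted p of 0.638 in edgeR's quasi-likelihood test, and a two-sided exact permutation test gave p = 0.397. The 95% confidence interval of this difference reached from 28.2% lower (-28.2%) to 11.1% higher.

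Cd68 had the fewest counts, 19 to 61 per control rat and 25 to 44 per MK-801 rat. Its levels were 2.13, 0.773, 1.73, 1.18 and 1.01 CPM in the control rats and 1.47, 1.36, 0.973, 1.00 and 0.935 CPM in the MK-801 rats. The highest and the lowest rat were both of the control group, replicates 1 and 2. Means of 1.36 ± 0.553 CPM (SD, n = 5) and 1.15 ± 0.246 CPM (SD, n = 5) differed by -0.25 on the log2 scale (SE 0.28; adjusted p = 0.706, edgeR's quasi-likelihood test; two-sided exact permutation test, p = 0.532). Counting error alone would give a coefficient of variation of 17.0% at this depth, and the interval, from -44.7% to 27.1%, was the widest of the 6.

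Itgam was at 10.6, 8.75, 15.8, 8.82 and 9.04 CPM in the control rats and at 12.3, 9.46, 9.13, 8.94 and 11.3 CPM in the MK-801 rats. Control replicate 3 stood above all others, followed by MK-801 replicates 1 and 5. Group means were 10.6 ± 2.98 CPM (SD, n = 5) for control and 10.2 ± 1.49 CPM (SD, n = 5) for MK-801, which is a difference of -0.05 on the log2 scale (SE 0.17; adjusted p = 0.913, edgeR's quasi-likelihood test; two-sided exact permutation test, p = 0.960). Control replicate 3 set the sign of this difference, which was 0.14 without it. The interval with all rats reached from -25.0% to 24.3%.

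For the complement chain C1qa, the control rats had 33.2, 32.7, 36.3, 27.2 and 22.6 CPM and the MK-801 rats had 33.2, 29.9, 31.6, 26.8 and 26.6 CPM. The MK-801 rats again lay inside the range of the control rats, between control replicates 5 and 3. The log2 fold change was -0.04 (standard error 0.12), from means of 30.4 ± 5.43 CPM (SD, n = 5) and 29.6 ± 2.89 CPM (SD, n = 5), with an interval from -18.4% to 16.5% (adjusted p = 0.910, edgeR's quasi-likelihood test; two-sided exact permutation test, p = 0.865). ENSRNOG00000012804, the gene called C1qb by the rule, had 17.7, 18.3, 19.9, 14.3 and 12.6 CPM in the control rats and 17.5, 17.7, 18.2, 14.9 and 15.3 CPM in the MK-801 rats. Rats that were high or low in C1qa were so in this gene too. Its means of 16.6 ± 3.04 CPM (SD, n = 5) and 16.7 ± 1.5 CPM (SD, n = 5) gave a log2 fold change of 0.01 (standard error 0.12), with an interval from -15.8% to 21.2% (adjusted p = 0.968, edgeR's quasi-likelihood test; two-sided exact permutation test, p = 0.817).

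ENSRNOG00000018659, the gene called Csf1r by the rule, had 15.8, 19.3, 16.3, 14.9 and 19.3 CPM in the control rats and 17.0, 18.4, 13.2, 16.1 and 20.1 CPM in the MK-801 rats. Here both the highest and the lowest rat were of the MK-801 group, replicates 5 and 3, and control replicates 5 and 2 were the highest of their group. The means, 17.1 ± 2.05 CPM (SD, n = 5) for control rats and 16.9 ± 2.57 CPM (SD, n = 5) for MK-801 rats, differed by -0.01 on the log2 scale (SE 0.11; adjusted p = 0.969, edgeR's quasi-likelihood test; two-sided exact permutation test, p = 0.889). The interval reached from -16.6% to 17.7%.

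**Figure D2:**
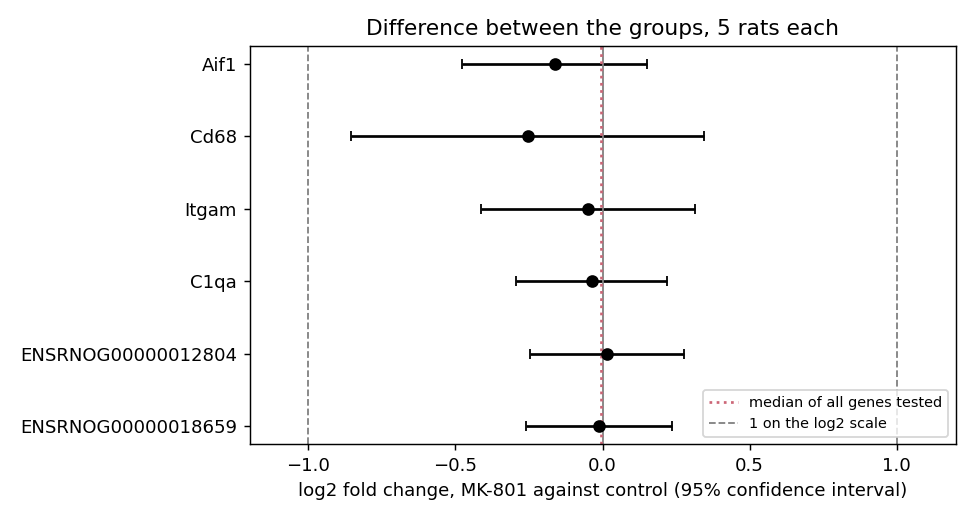
Log2 fold change (MK-801 over control) of each gene (dot) with its 95% confidence interval (bar) from edgeR, 5 rats per group. All 6 bars include 0, and none of them reaches the dashed lines at a log2 fold change of 1 in size.

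Summed over the 6 genes, the control rats had 92.3, 89.4, 103, 76.1 and 72.1 CPM and the MK-801 rats had 91.6, 85.5, 83.7, 77.1 and 82.8 CPM. The means were 86.6 ± 12.6 CPM (SD, n = 5) and 84.1 ± 5.24 CPM (SD, n = 5), and all 5 MK-801 rats lay between control replicate 5 and control replicate 3. In bulk tissue, a change in the number of microglia and a change in RNA per cell cannot be told apart. Without ENSRNOG00000018659, a choice made after seeing the data, the other 5 genes summed to 69.5 ± 13.2 CPM (SD, n = 5) for control rats and 67.2 ± 5.60 CPM (SD, n = 5) for MK-801 rats. The same control rats marked the ends, with 87.0 CPM in replicate 3 and 52.8 CPM in replicate 5. Control replicate 3 was also the library in which the 10 most abundant genes took the largest share of counts, 10.9%, while control replicate 5, with 6.0%, had the smallest share of its group. The part of this in the spread of the microglia genes was not tested.

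Within the control group, the coefficient of variation between rats was 22.9% for Aif1, 40.6% for Cd68, 28.2% for Itgam, 17.8% for C1qa, 18.3% for ENSRNOG00000012804 and 12% for ENSRNOG00000018659. In the MK-801 group the values were 8.90%, 21.4%, 14.6%, 9.76%, 8.96% and 15.2% in the same order. The control rats were thus the more variable ones in all members but ENSRNOG00000018659, and the difference in spread was not tested. The biological coefficient of variation estimated by edgeR had a median of 0.15 over the members and 0.113 over all genes tested, and was largest among the members for Cd68, 0.275.

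Whether the members rose and fell together from rat to rat was examined on log2 CPM after subtraction of each group's mean, which removes the difference between the groups. Where rats were left out of a correlation, the means subtracted were still those of all rats of the group. The rats that remained were then no longer centred on their own group mean, and r with newly computed means was not calculated. All points share a library with one another in every pair, so scaling and tissue composition act on both genes. Among Aif1, Cd68, Itgam, C1qa and ENSRNOG00000012804, all 10 pairs correlated positively, with Pearson's r from 0.41 to 0.97. With ENSRNOG00000018659, 4 of the 5 pairs were negative, with r from -0.59 to 0.03. Of the 15 pairs, 3 had an adjusted p-value under 0.05 for r and 4 for Spearman's rho. The permutations shuffled deviations over all 10 rats, across the groups. They do not allow for the group means already subtracted, nor for the larger spread of the control rats in most members. The permutation p-values of the correlations may therefore be too small, and calls near 0.05 are uncertain.

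**Figure D3:**
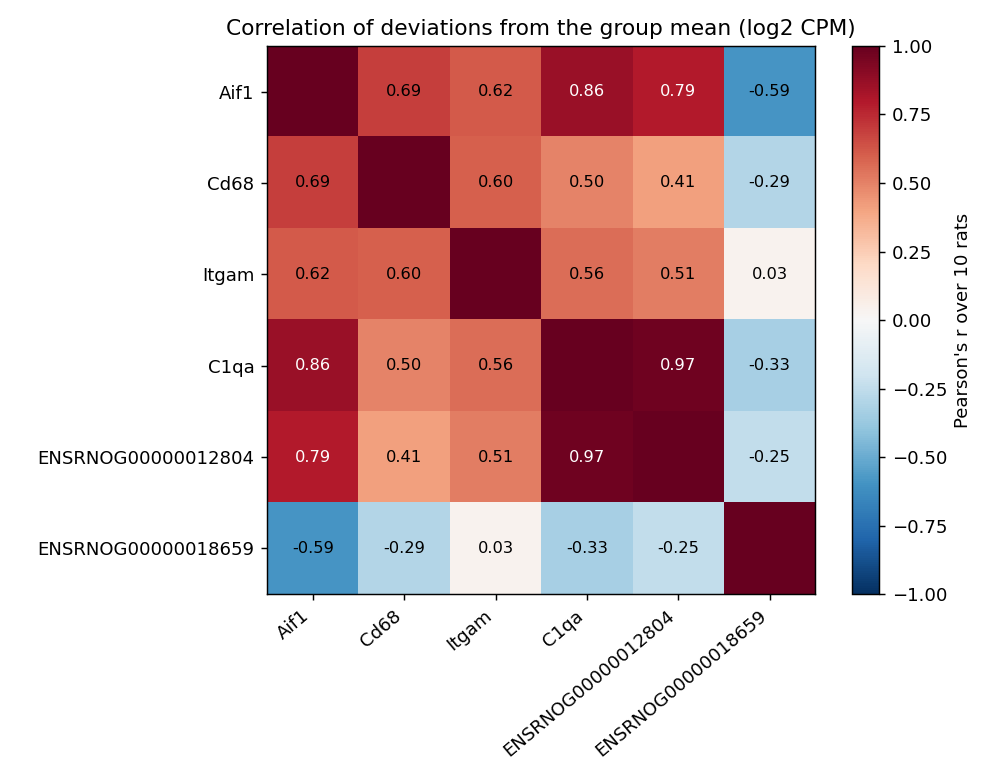
Pearson's r between each pair of genes over the 10 rats, computed on log2 CPM after subtraction of the group mean (red positive, blue negative). The first 5 genes form a block of positive values, and the column of ENSRNOG00000018659 is negative or near 0. This grouping was made after seeing the data.

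C1qa and ENSRNOG00000012804 were the closest pair. Pearson's r was 0.97 (permutation p = 0.00018, adjusted p = 0.0027 over 15 pairs) and Spearman's rho was 0.81 (permutation p = 0.00757, adjusted p = 0.0394). Without the 2 rats farthest from the median of C1qa, control replicates 3 and 5, r was 0.93 (permutation test, adjusted p = 0.124). The ratio of the counts of C1qa and ENSRNOG00000012804 lay between 1.69 and 1.91 in all 10 rats. Its coefficient of variation was 3.95%, less than the 5.90% that counting error alone would give, so no variation of the ratio beyond counting error was detectable at this depth. For comparison, the ratio of C1qa to ENSRNOG00000018659 varied by 21.3% with 5.86% from counting error.

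Aif1 followed C1qa, with r = 0.86 (permutation p = 0.00165, adjusted p = 0.0124) and rho = 0.79 (permutation p = 0.00893, adjusted p = 0.0394). Aif1 and ENSRNOG00000012804 had r = 0.79 (permutation p = 0.00696, adjusted p = 0.0348) and rho = 0.58 (permutation p = 0.0882, adjusted p = 0.189). Without control replicates 3 and 5, the 2 rats farthest from the median of Aif1, r was 0.61 and 0.45, with adjusted permutation p-values of 0.384 and 0.733. Both values of r stayed positive, but neither pair kept its call with these fewer rats. For Aif1 and C1qa, r was 0.817 without control replicate 3 alone and 0.741 without control replicate 5 alone (permutation test, adjusted p = 0.0602 and p = 0.169). Aif1 and ENSRNOG00000012804 also lost the call without MK-801 replicate 1, 3 or 5, where r was 0.788, 0.781 and 0.783. Aif1 and Cd68 had rho = 0.78 (permutation p = 0.0104, adjusted p = 0.0394) and r = 0.69 (permutation p = 0.0271, adjusted p = 0.102), and r was 0.68 without the same 2 rats.

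The other pairs of Cd68 had r = 0.60 with Itgam, 0.50 with C1qa and 0.41 with ENSRNOG00000012804 (permutation test, adjusted p = 0.160, 0.214 and 0.326 over 15 pairs). For Itgam, r was 0.62 with Aif1, 0.60 with Cd68, 0.56 with C1qa and 0.51 with ENSRNOG00000012804, and the lowest of the 4 adjusted p-values (permutation test, over 15 pairs) was 0.160. Without control replicate 3 and MK-801 replicate 1, the 2 rats farthest from the median of Itgam, r with C1qa was 0.11. Aif1 and ENSRNOG00000018659 ran in opposite directions, with rho = -0.78 (permutation p = 0.0105, adjusted p = 0.0394) and r = -0.59 (permutation p = 0.0745, adjusted p = 0.160), and r was -0.59 without the 2 farthest rats. Rats low in Aif1, such as control replicate 5, tended to be high in ENSRNOG00000018659.

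**Figure D4:**
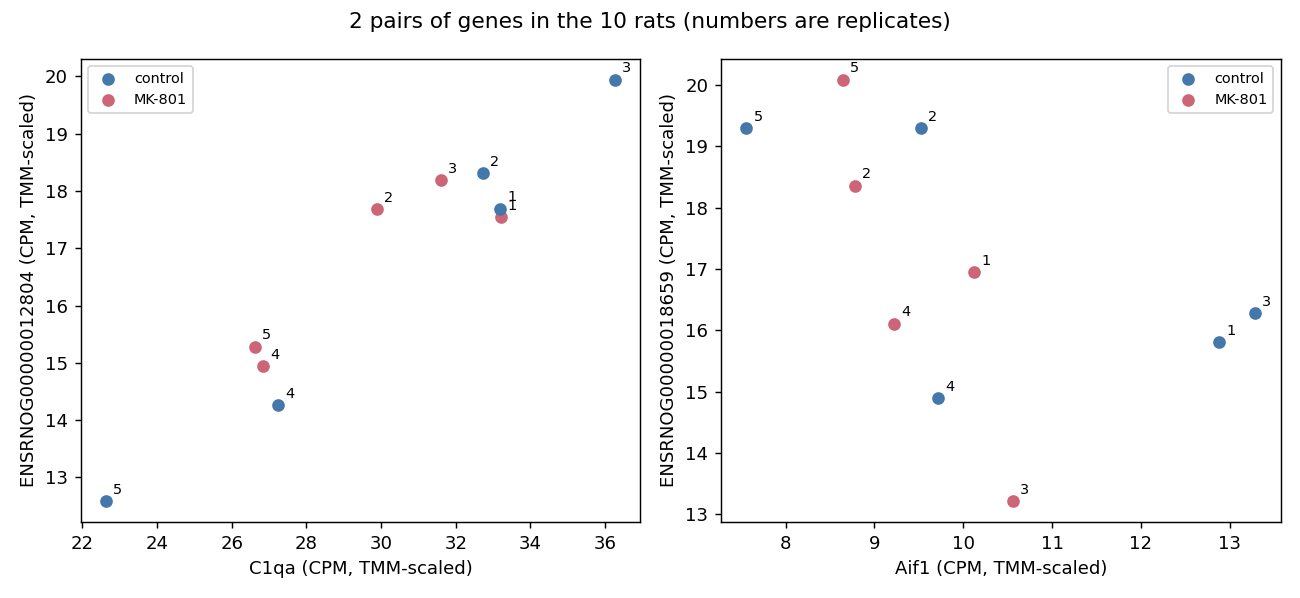
Levels of C1qa against ENSRNOG00000012804 (left) and of Aif1 against ENSRNOG00000018659 (right) in CPM, with 1 dot per rat numbered by replicate and coloured by group (axes do not start at 0). The left pair lies close to a line that both groups share, and on the right the rats low in Aif1 tend to be high in the other gene.

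The share of each gene in the summed counts of the 6 does not depend on how libraries are scaled. C1qa made up 35.0% ± 2.08 (SD, n = 5) of these counts for control rats and 35.2% ± 2.07 (SD, n = 5) for MK-801 rats. ENSRNOG00000012804 made up 19.0% ± 1.10 (SD, n = 5) and 19.9% ± 1.31 (SD, n = 5), and Aif1 made up 12.1% ± 1.52 (SD, n = 5) and 11.3% ± 1.01 (SD, n = 5). These last genes had the largest differences in share with all rats, 0.849 and -0.880 percentage points, and neither was larger than the variation among rats (exact permutation tests, two-sided, p = 0.325 and p = 0.278, adjusted p = 0.952 over 6 genes for both). Single rats moved both by over 1.5 times, to 0.384 points for ENSRNOG00000012804 without MK-801 replicate 3 and to -0.427 points for Aif1 without control replicate 1. For Itgam the shares were 12.1% ± 2.01 (SD, n = 5) and 12.1% ± 1.30 (SD, n = 5), for Cd68 1.56% ± 0.519 (SD, n = 5) and 1.36% ± 0.226 (SD, n = 5), and for ENSRNOG00000018659 20.2% ± 4.31 (SD, n = 5) and 20.2% ± 3.19 (SD, n = 5). A shift in proportion among the 6 genes was therefore not detectable with 5 rats per group.

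The genes with the most similar pattern were sought among 16062 other genes with a mean of at least 10 counts, by the mean of Pearson's r with the 6 members over the 10 rats, group means subtracted. The closest, ENSRNOG00000016530, had a mean r of 0.64, which ranged from -0.22 with ENSRNOG00000018659 to 0.92 with C1qa. It was at 33.8 ± 2.30 CPM (SD, n = 5) for control rats and 36.4 ± 0.991 CPM (SD, n = 5) for MK-801 rats, which differ by 0.10 on the log2 scale (SE 0.06; adjusted p = 0.426, edgeR's quasi-likelihood test). The second, ENSRNOG00000017298, also had a mean r of 0.64, with 0.81 for Itgam and 0.16 for ENSRNOG00000018659. Its levels were 6.79 ± 1.29 CPM (SD, n = 5) and 6.59 ± 0.610 CPM (SD, n = 5), and the log2 fold change was -0.04 (adjusted p = 0.902, edgeR's quasi-likelihood test). The median of this mean r over the other genes was -0.01. Both genes are given as the highest of many and without a name, since the files do not pair identifiers with symbols.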

How the data were processed

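PFC tissue of 10 rats was sequenced, 1 library per rat. According to the methods and the submitters' processing notes, the authors aligned reads to build mRatBN7.2 with HISAT2 (2.2.1), used SAMtools (1.15.1) and counted reads on Ensembl genes with featureCounts of Subread (2.0.1). The deposited values are raw counts per gene, neither normalized nor filtered. The strand setting is not given in the sources used here, so overlapping genes may share reads.

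Low genes were filtered by filterByExpr (minimum count of 10, minimum total of 15). Libraries were scaled by TMM, and groups were compared two-sided with the quasi-likelihood test of edgeR version 4.0.16 in R version 4.3.3, adjusted by Benjamini-Hochberg over all 16137 genes tested. Log2 CPM used a prior count of 2. Standard errors (SE) were the fold change over the root of F. Correlations used 100000 permutations of the rats' deviations from group means. Settings varied were DESeq2 version 1.42.0, RLE and upper quartile scaling, other filters, limma-voom (limma 3.58.1), sva 3.50.0 with 1 surrogate variable, a block for the replicate number and each rat left out. The main edgeR fit, DESeq2, limma-voom, the replicate block and the surrogate variable were tested on simulated data. These data held no replicate effect or hidden factor. Other scalings, other filters and the fits with a rat left out were not tested in this way. Members and lists were chosen with earlier results of these data known. Genes named are the 6 members and the 2 most similar to them. Lists of other cell types could not be applied, since identifiers are not paired with symbols. P-values rest on the variation between rats of 1 cohort, and counting intervals cover counting error only.

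Same-numbered rats were not taken as pairs in the main fit, since the labels do not call them so. Their deviations correlated above 0.1 in 3 of 5 pairs. The mean r was 0.12 for rats of the same number and -0.03 for rats of different numbers. Results with a block for the replicate number are therefore given below.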

Additional observations from a re-analysis of the deposited data

Results flagged for a closer look

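Among 26 groups of 5 rats checked (the level and the share of each of the 6 genes and their summed level, in both groups), 1 held a rat set apart from the others, where chance gives about 1 in 20. The share of C1qa in the summed counts of the 6 genes was 31.4% in control replicate 5, and its gap to the nearest control rat was 0.714 of the whole range of the group, just above the limit of 0.71 used for 5 samples. In the same rat ENSRNOG00000018659 made up the highest share of all rats, 26.8%.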

How the results depend on the processing

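In every fit run, 0 of the 6 genes passed an adjusted or an unadjusted p-value of 0.05. Groups overlapped in all 6 with RLE or upper quartile scaling or any rat left out (share of all genes not computed). The smallest unadjusted p-value of edgeR's quasi-likelihood test was 0.0539, for Aif1 without control replicate 5. With each rat left out, the log2 fold change ranged from -0.26 to -0.07 for Aif1, from -0.39 to -0.03 for Cd68, from -0.13 to 0.14 for Itgam, from -0.12 to 0.0347 for C1qa, from -0.0661 to 0.0912 for ENSRNOG00000012804 and from -0.0785 to 0.0634 for ENSRNOG00000018659. The sign of the last 4 thus depended on single rats. With 1 surrogate variable the value of C1qa was 0.0143 in place of -0.04. The median over the 6 genes ranged from -0.11 without control replicate 5 to 0.00173 without control replicate 3, and the ratio of summed levels, MK-801 over control, from 0.932 to 1.02 without the same rats. The differences in share ranged from -1.08 to 1.67 percentage points for ENSRNOG00000018659, from -0.588 to 0.779 for Itgam, from -0.682 to 0.975 for C1qa, from -1.30 to -0.427 for Aif1 and from 0.384 to 1.21 for ENSRNOG00000012804. Without control replicate 5, that of ENSRNOG00000018659 (1.67) was the largest. At an adjusted p of 0.05, edgeR called 0 of 16137 genes (2235 at an unadjusted one). DESeq2 called 106 when run on 23914 genes, of which not all need have had an adjusted p. Both the tool and the genes tested thus differ. With a rat left out, edgeR called from 0 to 12 (12 without MK-801 replicate 1). Those at an unadjusted p-value under 0.05 ranged from 1458 without control replicate 3 to 3280 without control replicate 5.

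With the replicate block, which the labels do not call a pairing, no member changed its call. Over all genes tested, edgeR with the block had 2862 at an unadjusted p under 0.05, in place of 2235, and 0 at an adjusted one. The log2 fold change of C1qa was -0.02 with a standard error of 0.07 in place of 0.12, and that of Aif1 was -0.14 with a standard error of 0.10 in place of 0.14. The differences in share keep their values under the block by construction, but the two-sided exact permutation p within pairs was 0.0625 for Aif1, the smallest that 5 pairs allow, in place of 0.278, and 0.125 for ENSRNOG00000012804 in place of 0.325.

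For the correlations, each rat left out (chosen after seeing the data) gave r from 0.950 to 0.984 for C1qa and ENSRNOG00000012804 and from -0.117 to 0.202 for Itgam and ENSRNOG00000018659. The first stayed under an adjusted p-value of 0.05 in all 10 (permutation test) but not with the 2 farthest rats both left out (adjusted p = 0.124). Without centring on the group means, r of Aif1 and ENSRNOG00000012804 was 0.73 (permutation test, adjusted p = 0.0819). The cause of these lost calls was not tested.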
